A study of Mus musculus with 10 samples.

Results

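The genes of the proteasome, the complex that degrades ubiquitin-tagged proteins, were followed in the epithelium of pancreatic tumours from KPFSR mice, which develop ductal adenocarcinoma from engineered alleles, taken from sections by laser capture. Members were all symbols of the Psma, Psmb, Psmc, Psmd and Psme families followed by a number, leaving out the interferon-induced subunits Psmb8, Psmb9 and Psmb10. This gave 40 of the 15624 genes in the count table. By role, 7 encode the alpha ring and 7 the beta ring of the 20S core particle, 6 the ATPase ring and 11 the non-ATPase subunits of the 19S regulatory particle, 3 the chaperones that assemble the 19S base, and 4 the activator caps. The other members were Psma8, a 20S subunit restricted to testis, and Psmc3ip, a meiotic recombination factor that shares the letters of the rule and is no proteasome subunit.

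The 2 groups of KPFSR tumours came from mice given tamoxifen (n = 6 libraries) and mice given corn oil, the vehicle (n = 4 libraries). From knowledge of the model and not from the labels, a Flp recombinase expressed in the pancreas turns on engineered tumour alleles in both groups. Both groups also carry floxed Slc7a11, the cystine transporter gene, and a Cre recombinase that tamoxifen activates throughout the body. Tamoxifen-treated animals without the floxed allele were not analysed here, so an effect of tamoxifen and an effect of the deletion cannot be told apart. The sources used here give no ages, and the labels do not tie libraries to animals. Every p-value below therefore measures the spread between libraries and is too small if libraries share an animal.

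The 26S proteasome consists of a 20S core, a barrel of stacked alpha and beta rings, capped by the 19S regulatory particle. Substrates tagged with ubiquitin are bound, stripped of ubiquitin and unfolded by the 19S particle, then threaded through the gated alpha ring and cut by the catalytic beta subunits inside. When proteasome activity falls short, the transcription factor NFE2L1 (NRF1) raises the genes of the subunits together, through antioxidant response elements in their promoters.

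Total counts ran from 6899347 to 19462115 in tamoxifen libraries and from 16473902 to 36132316 in corn oil libraries. Levels are given as normalised CPM, library-scaled counts (CPM) adjusted with TMM factors, with SD over libraries. Slc7a11 had 5.90 to 19.3 normalised CPM (median 10.6) with tamoxifen, against 38.9, 26.1, 40.1 and 23.2 with corn oil, so every tamoxifen library lay below every corn oil library. The fitted log2 fold change was −1.41 (SE 0.44), with an adjusted p of 0.311 by edgeR's quasi-likelihood test over all genes tested. Trp53, the p53 tumour suppressor gene, was higher with tamoxifen. It had 19.98 to 225 normalised CPM (median 172) with tamoxifen, against 6.40, 6.22, 8.91 and 8.82 with corn oil, with no overlap and a log2 fold change of 4.30 (SE 0.61; adjusted p of 0.0362 in edgeR). The part of this difference in the results below was not tested. Replicate numbers are names given in accession order, not from the labels. Tamoxifen replicates 1 to 3 stood apart as a set: over the tested genes, which are no independent replicates, Pearson's r of log2 CPM was 0.921 to 0.963 among them and 0.723 to 0.878 in the other 42 pairs of libraries. Counts over members are given below also with their counts summed into 1 sample and without them, and so are those log2 fold changes at an unadjusted p under 0.05 that moved by over 1.5 times when they were left out. Epithelial markers summed to 15071 to 27080 normalised CPM with tamoxifen and 16947 to 33283 with corn oil, and 11 of 12 had a log2 fold change below 0 (median −0.61). Their sums in tamoxifen replicates 1 to 3 were 15071, 17372 and 16472. Fibroblast markers summed to 179 to 1154 with tamoxifen and 192 to 544 with corn oil, and 10 of the 11 tested had a log2 fold change above 0 (median 0.75). Macrophage markers summed to 831 to 2246 with tamoxifen and 982 to 1466 with corn oil, and 8 of 10 were below 0 (median −0.43). Acinar sums were 33.1 to 86.9 with tamoxifen and 17.2 to 208 with corn oil (2 of 2 tested genes below 0), and 6 of the 7 acinar markers in the table were at 0 in at least 5 libraries. Endothelial sums were 7.61 to 75.1 with tamoxifen and 7.77 to 57.5 with corn oil (4 of 7 tested genes above 0), and lymphocyte sums were 1.87 to 12.4 with tamoxifen and 2.01 to 12.6 with corn oil (1 gene tested). No listed marker was at 0 in all 10 libraries. The part of these cell types in the results below was not tested. In such bulk samples, fewer cells of a type and less RNA per cell cannot be told apart.

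Proteasome genes were lower with tamoxifen in most cases, by small amounts, and none passed the threshold across all genes. The members took 0.807% to 0.952% of all counts in tamoxifen libraries and 0.965% to 1.04% in corn oil libraries. These ranges of raw shares, taken without TMM factors, did not overlap. The raw share averaged 0.873% ± 0.0508 (SD, n = 6) with tamoxifen and 1.01% ± 0.0420 (SD, n = 4) with corn oil. With TMM factors the groups overlapped. The median log2 deviation of tested members from their own medians was 0.15 in tamoxifen replicate 6. It was 0.08 and 0.05 in corn oil replicates 1 and 3. Of the 40 members, 39 had enough counts to be tested; Psma8 did not, with 0 reads in most libraries. No member passed an FDR of 0.05 in edgeR's quasi-likelihood test, where 5 of 13006 genes did (0.0384%), and the smallest adjusted p of a member was 0.228. At an unadjusted p under 0.05, 10 members (25.6% of those tested) were lower with tamoxifen, against 5.27% of all genes tested. They were Psme4, Psmb6, Psmc4, Psmd13, Psmd14, Psma1, Psmb3, Psmb7, Psmc3 and Psma7. No member was higher at that threshold, against 4.43% of all genes. A log2 fold change below 0 was found for 29 of 39 members (74.4%), against 50.7% of all genes, and the median was −0.31, against −0.01 over all genes. Every tamoxifen library lay below every corn oil library for 3 members, Psme4, Psmb6 and Psma7 (1.95% of all genes), and above for none (1.28% of all genes).

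**Figure D1:**
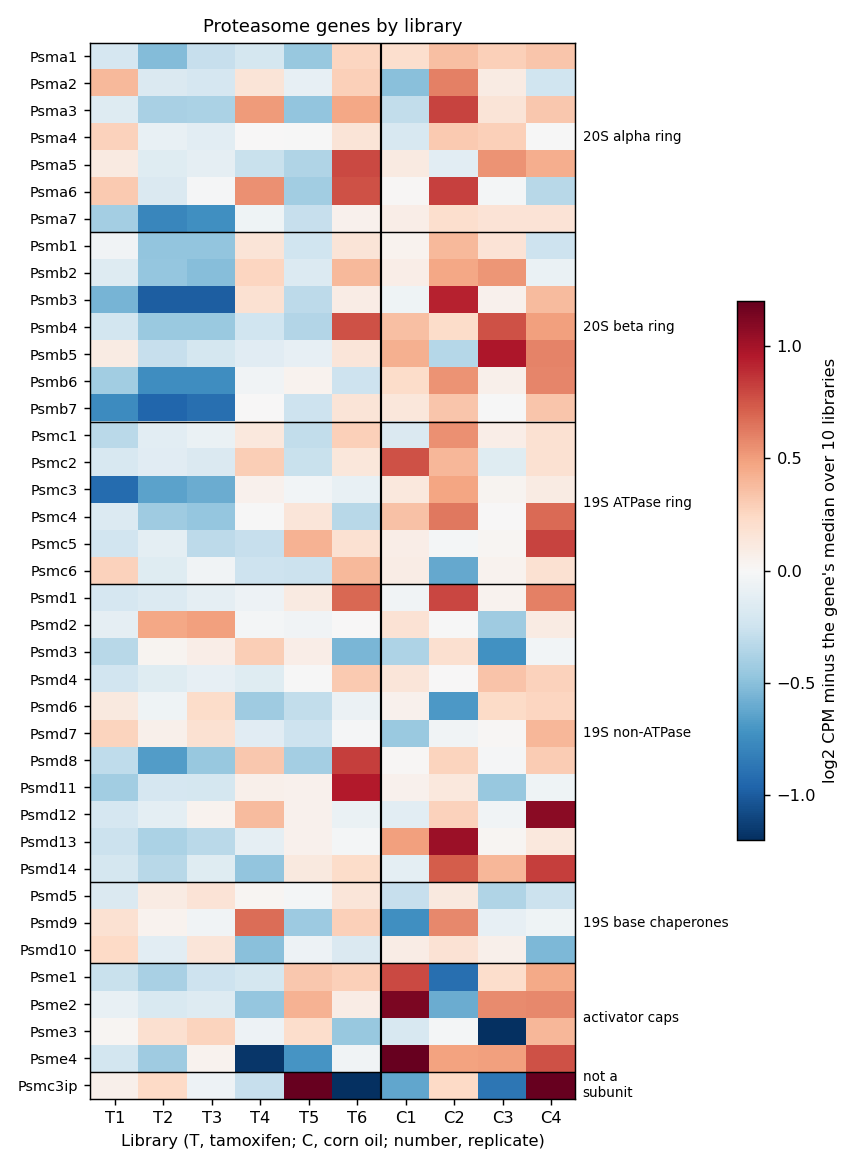
Each row is a proteasome gene, grouped by role, and each column a library (T, tamoxifen; C, corn oil). Colour is log2 CPM minus the gene's median over the 10 libraries, red above and blue below, with the scale ending at 1.2 either way; the beta ring is bluest in T2 and T3, where its median was −0.47 and −0.51.

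The count of members lower at an unadjusted p under 0.05 depended on tamoxifen replicates 1 to 3. For 6 of the 10 genes lower at that threshold (Psma7, Psmb3, Psmb6, Psmb7, Psmc3 and Psmd13), those 3 libraries were the lowest of all 10. With their counts summed into 1 sample, 1 member, Psme4, was lower at an unadjusted p under 0.05 (2.67% of all genes), and the median over members was −0.20. Without them, Psme4 was again the 1 member (2.23% of all genes), and the median was −0.13. In each of these fits 29 of 39 members had a log2 fold change below 0, against 51.1% of all genes with the counts summed and 53.6% without the libraries. The members counted differed, since Psmd8 was above 0 and Psmd7 below 0 in both fits, where all 10 libraries gave −0.16 and 0.02. Single libraries mattered as well: the count of 10 became 6 without tamoxifen replicate 1, 4 without tamoxifen replicate 2, 5 without tamoxifen replicate 3 and 6 when either corn oil replicate 2 or 4 was left out. The 3 members with groups that did not overlap stayed 3 with tamoxifen replicates 1 to 3 summed or left out. That count became 5 without tamoxifen replicate 5, 6 without tamoxifen replicate 6 and 5 without corn oil replicate 1. It became 6 when either corn oil replicate 2 or 3 was left out. Leaving out a library can only keep or raise this count for any set of genes. The share of all genes was not counted in those fits. Tamoxifen replicate 6 was the tamoxifen library with the highest median over members, 0.15 above their own medians on the log2 scale, and the other 5 tamoxifen libraries lay between −0.19 and −0.04. The 4 corn oil libraries lay at 0.08, 0.28, 0.05 and 0.30.

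**Figure D2:**
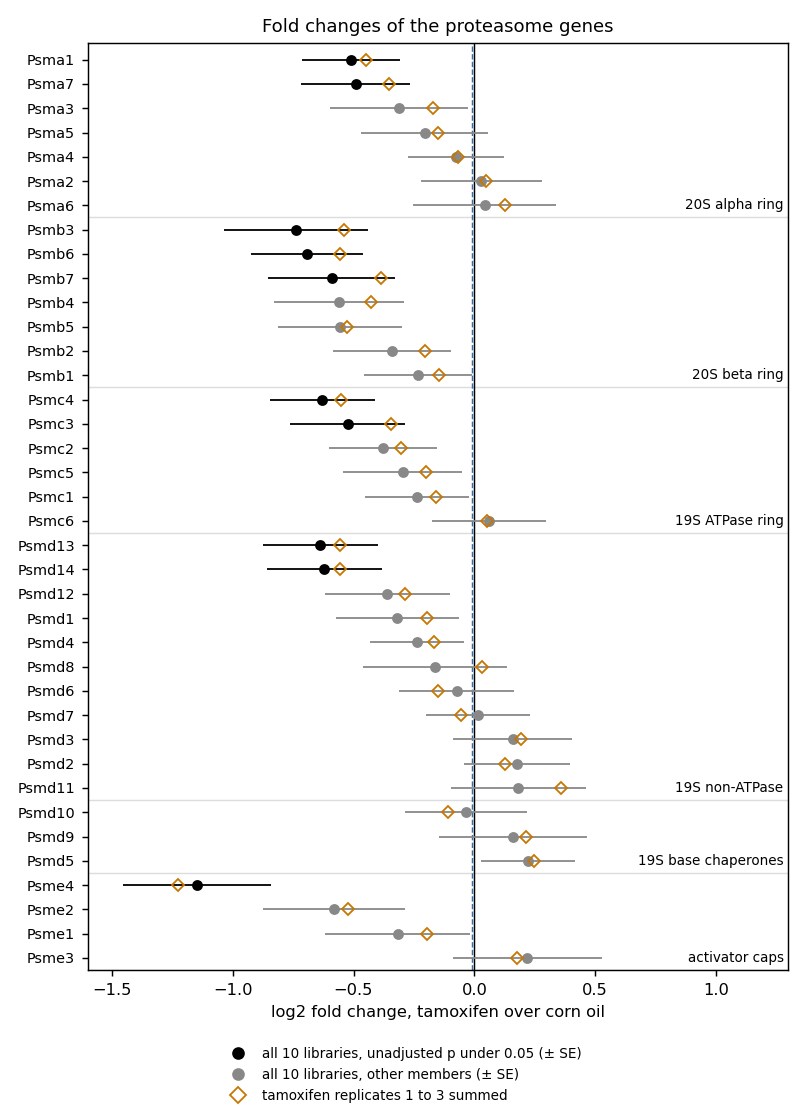
Log2 fold change of each tested subunit, chaperone and cap, tamoxifen over corn oil, with SE as bars; black points had an unadjusted p under 0.05, and open diamonds give the fit with tamoxifen replicates 1 to 3 summed into 1 sample. The dashed line marks the median of all tested genes at −0.01, and the 7 beta ring genes lie between −0.74 and −0.23.

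Promoter sequences were at hand for 33 of the 40 members (36 promoters of 250 bases before to 50 after the gene start, RefSeq, GRCm38.p6). The core of the antioxidant response element, searched on both strands as TGACNNNGC or TGAGNNNGC, was in 17 of 36 member promoters (47.2%), in 31.0% of the promoters of genes in the count table and in 27.8% of all promoters of the same length. By form, TGACNNNGC was in 16.7% of member promoters, 14.3% of those of genes in the table and 12.4% of all. TGAGNNNGC was in 36.1% of member promoters, 19.6% of those of genes in the table and 17.6% of all. CCAAT, the box bound by NF-Y, was in 36.1% of member promoters, 37.2% of those of genes in the table and 37.4% of all. Among the 10 genes lower at an unadjusted p under 0.05, 8 had a promoter in the table and 5 of these held the element (Psma7, Psmb3, Psmb6, Psmd13 and Psme4). Of the other 29 tested members, 25 had a promoter and 11 of these held it. Sequence upstream of the catalytic subunit Psmb6 and of the ATPase Psmc4, neighbours in the order of p-values, is shown because one holds a match and the other none; capitals mark the match.
Psmb6: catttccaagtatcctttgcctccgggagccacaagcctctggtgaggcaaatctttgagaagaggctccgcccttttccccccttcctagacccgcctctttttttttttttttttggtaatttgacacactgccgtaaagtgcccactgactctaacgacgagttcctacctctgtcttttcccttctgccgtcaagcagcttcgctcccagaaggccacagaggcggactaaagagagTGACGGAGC
Psmc4: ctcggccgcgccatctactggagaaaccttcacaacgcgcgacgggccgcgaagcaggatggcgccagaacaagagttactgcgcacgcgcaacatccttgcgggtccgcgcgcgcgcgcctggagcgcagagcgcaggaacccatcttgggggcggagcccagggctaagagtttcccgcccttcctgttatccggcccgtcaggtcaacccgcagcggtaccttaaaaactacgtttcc
The Psmb6 stretch is chr11:70525107-70525356 on the plus strand and its match starts 9 bases before the gene start. The Psmc4 stretch is chr7:28050102-28050342 on the minus strand. A match is a description of letters only, and binding was not measured.

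The beta ring, which carries the protease sites, had the lowest median fold change of the roles. All 7 genes were below 0 (median −0.56, range −0.74 to −0.23). At an unadjusted p under 0.05, 3 were lower (5.27% of all genes), and 0 with tamoxifen replicates 1 to 3 summed or left out. Psmb6 encodes the caspase-like (beta 1) catalytic subunit. It had 299.7 to 517 normalised CPM (median 399) with tamoxifen, against 586, 729, 523 and 753 with corn oil. The highest tamoxifen library, replicate 5, lay just below the lowest corn oil library, replicate 3, so the groups did not overlap. Its means were 401 ± 92.4 (SD, n = 6) with tamoxifen and 648 ± 111 (SD, n = 4) with corn oil. On the log2 scale its fold change was −0.69 (SE 0.23), with an adjusted p of 0.327 in edgeR. It was −0.56 with tamoxifen replicates 1 to 3 summed and −0.44 without them.

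Psmb7, the trypsin-like (beta 2) catalytic subunit, had 83.0 to 178 normalised CPM (median 115) with tamoxifen, against 177, 202, 159.9 and 202 with corn oil. Tamoxifen replicates 4 and 6 lay within the corn oil range, and tamoxifen replicates 1 to 3 were lowest at 95.2, 83.0 and 85.7. For this gene the log2 fold change was −0.59 (SE 0.26), with an edgeR adjusted p of 0.496. It was −0.39 with those 3 libraries summed and −0.22 without them. An exon of Psmb7 overlaps one of Nek6 on the other strand, and the library kits do not mark strand, so reads in the overlap cannot be assigned.

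Psmb5 encodes the chymotrypsin-like (beta 5) catalytic subunit, the main target of bortezomib. It had 64.1 to 86.3 normalised CPM (median 71.9) with tamoxifen, against 104, 61.4, 152 and 118 with corn oil. Corn oil replicate 2 was the lowest of all 10 libraries, and the other 3 corn oil libraries lay above every tamoxifen library. In edgeR its log2 fold change was −0.56 (SE 0.26), with an adjusted p of 0.516 and an unadjusted p of 0.0504. Psmb3, a non-catalytic (beta 3) subunit, had 159 to 357 normalised CPM (median 233) with tamoxifen, against 304, 597, 326 and 410.5 with corn oil. The resulting log2 fold change of −0.74 (SE 0.30) was the lowest in the ring, with an edgeR adjusted p of 0.435. Tamoxifen replicates 4 and 6 reached the corn oil range, so the groups overlapped. Its value was −0.54 with tamoxifen replicates 1 to 3 summed and −0.37 without them. The other non-catalytic subunits, Psmb4 (−0.56), Psmb2 (−0.34) and Psmb1 (−0.23), did not reach an unadjusted p under 0.05. For the whole ring the median was −0.43 with tamoxifen replicates 1 to 3 summed and −0.32 without them.

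The alpha ring gates the entrance to the core. Of its 7 genes 5 had a log2 fold change below 0 (median −0.21). At an unadjusted p under 0.05, 2 were lower (5.27% of all genes), and 0 with tamoxifen replicates 1 to 3 summed or left out. Psma7 (alpha 4) had 433 to 774 normalised CPM (median 588) with tamoxifen, against 790.4, 859.9, 839 and 837 with corn oil. The groups did not overlap, and the corn oil libraries lay close together. Means were 592 ± 139 (SD, n = 6) with tamoxifen and 832 ± 29.4 (SD, n = 4) with corn oil. Its log2 fold change was −0.49 (SE 0.23), with an edgeR adjusted p of 0.513. It was −0.35 with tamoxifen replicates 1 to 3 summed (−0.24 without them).

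Psma1 (alpha 6) had 199 to 341 normalised CPM (median 242) with tamoxifen, against 329, 368, 349 and 359 with corn oil. Tamoxifen replicate 6 alone reached the corn oil range, and the other 5 ended at 248. The fitted log2 fold change was −0.51 (SE 0.20), with an edgeR adjusted p of 0.427. Psma6 (alpha 1) gave the smallest p among the alpha genes above 0. It had 297 to 672 normalised CPM (median 441) with tamoxifen, against 399, 696, 389 and 315 with corn oil, a log2 fold change of 0.04 (SE 0.30) and, in edgeR, an adjusted p of 0.986. The 2 groups of Psma6 values overlapped throughout. The other 4 genes, Psma2 to Psma5, lay between −0.31 and 0.03.

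**Figure D3:**
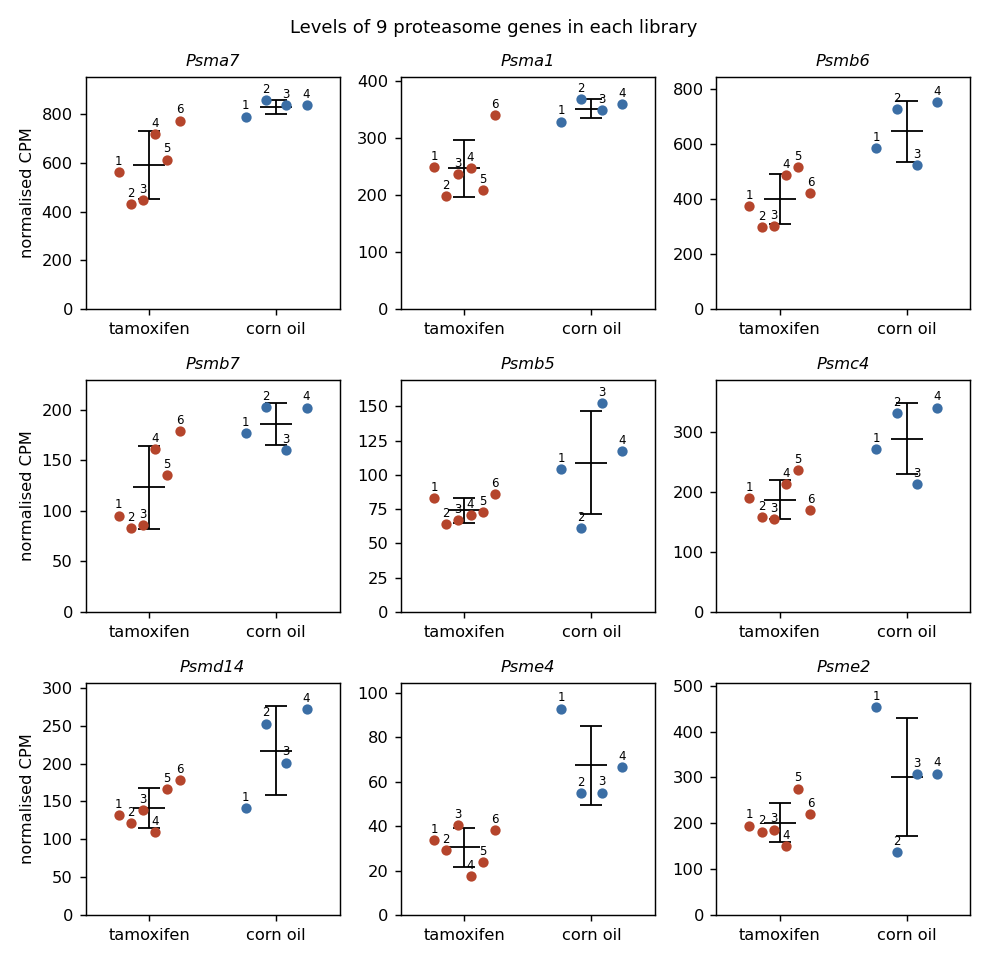
Normalised CPM of 9 proteasome genes in each library, with the replicate number beside each point, a line at the mean and bars of SD; axes start at 0. In the panels of Psma7, Psmb6 and Psme4 the tamoxifen points all lie below the corn oil points, and in those of Psmb5 and Psme2 corn oil replicate 2 lies below the tamoxifen points.

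The 19S ATPases unfold substrates and open the gate of the core. Of 6 genes 5 were below 0 (median −0.34). At an unadjusted p under 0.05, 2 were lower (5.27% of all genes), and 0 with tamoxifen replicates 1 to 3 summed or left out. Psmc4 (Rpt3) had 155 to 236 normalised CPM (median 179.9) with tamoxifen, against 271, 331, 213 and 341 with corn oil. Tamoxifen replicate 5 lay above corn oil replicate 3, and the other 3 corn oil libraries lay above every tamoxifen library. On the log2 scale its fold change was −0.63 (SE 0.22), with an edgeR adjusted p of 0.34. Psmc3 (Rpt5) had 135 to 266 normalised CPM (median 205) with tamoxifen, against 281, 358, 263 and 275 with corn oil, a log2 fold change of −0.52 (SE 0.24) and, in edgeR, an adjusted p of 0.507. Only tamoxifen replicate 4 reached the corn oil range of Psmc3, whose exons overlap Slc39a13 on the other strand. Psmc3 was at −0.34 with tamoxifen replicates 1 to 3 summed and −0.21 without them. Psmc1 (Rpt2), the ATPase with the highest level per transcript length, had a log2 fold change of −0.24 (SE 0.22; adjusted p of 0.803 in edgeR), with means of 278 ± 46.7 (SD, n = 6) for tamoxifen and 327 ± 70.5 (SD, n = 4) for corn oil. Psmc6 (Rpt4) was the single ATPase above 0, at 0.06, with means of 133 ± 26.3 for tamoxifen and 128 ± 28.6 for corn oil.

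Among the non-ATPase subunits, which bind ubiquitin chains, remove them and hold the lid together, 7 of 11 were below 0 (median −0.16). At an unadjusted p under 0.05, 2 were lower (5.27% of all genes), and 0 with tamoxifen replicates 1 to 3 summed or left out. Psmd14 (Rpn11) is the deubiquitinase that removes chains from substrates. It had 109.8 to 178 normalised CPM (median 135) with tamoxifen, against 141, 253, 201 and 272 with corn oil. Corn oil replicate 1 lay among the tamoxifen libraries, and the other 3 corn oil libraries lay above all of them. For this gene the log2 fold change was −0.62 (SE 0.24), with an edgeR adjusted p of 0.4.

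Psmd13 (Rpn9), a structural subunit of the lid, had 79.2 to 106 normalised CPM (median 90.8) with tamoxifen, against 145, 209, 104 and 112 with corn oil. Tamoxifen replicate 5 lay just above corn oil replicate 3, so the groups overlapped by 1 library each. In edgeR its log2 fold change was −0.64 (SE 0.24), with an adjusted p of 0.383. Without corn oil replicate 2, the highest library, it was −0.39. Exons of Psmd13 overlap Sirt3 on the other strand.

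Of the non-ATPase subunits, 4 of 11 had a log2 fold change above 0, none at an unadjusted p under 0.05. Psmd2 (Rpn1), a scaffold of the base that docks ubiquitin shuttles, had 250.3 to 379.9 normalised CPM (median 268) with tamoxifen, against 304, 268, 200.0 and 288 with corn oil. Tamoxifen replicates 2 and 3 were its highest libraries, at 371 and 379.9, where the beta ring was lowest. The resulting log2 fold change was 0.18 (SE 0.22; adjusted p of 0.873 in edgeR), or 0.01 without tamoxifen replicates 1 to 3. Psmd11 (Rpn6), a lid subunit, had 153 to 393 normalised CPM (median 194) with tamoxifen, against 210.3, 222, 148 and 197 with corn oil. Tamoxifen replicate 6 alone was above 212 among the tamoxifen libraries, and the log2 fold change was 0.18 (SE 0.28; adjusted p of 0.908 in edgeR), or −0.06 without that library. Psmd4 (Rpn10), a ubiquitin receptor and the non-ATPase gene with the highest level per transcript length, averaged 321 ± 46.7 (SD, n = 6) with tamoxifen and 379 ± 39.1 (SD, n = 4) with corn oil. Its log2 fold change was −0.24 (SE 0.20; adjusted p of 0.771 in edgeR).

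The 3 chaperones of base assembly stood near 0, with a median log2 fold change of 0.16 and none at an unadjusted p under 0.05. Psmd5 had 113 to 143 normalised CPM (median 133) with tamoxifen, against 105, 139, 99.6 and 107 with corn oil. Corn oil replicate 2 lay among the tamoxifen libraries, and the other 3 corn oil libraries lay below all of them. The fitted log2 fold change was 0.22 (SE 0.20; adjusted p of 0.796 in edgeR), the highest of any member. Psmd10 (gankyrin) averaged 62.6 ± 11 (SD, n = 6) with tamoxifen and 64.1 ± 13.0 (SD, n = 4) with corn oil, a log2 fold change of −0.03.

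The activator caps bind the ends of the 20S core in place of the 19S particle. Psme4 encodes PA200, a single-chain nuclear cap known in mice for histone degradation during sperm development. It had 17.4 to 40.3 normalised CPM (median 31.4) with tamoxifen, against 93.0, 54.9, 55.1 and 66.7 with corn oil. Every tamoxifen library lay below every corn oil library, with a gap between the groups. Means were 30.5 ± 8.74 (SD, n = 6) with tamoxifen and 67.4 ± 17.9 (SD, n = 4) with corn oil. On the log2 scale its fold change was −1.15 (SE 0.31), the lowest of any member, with an edgeR adjusted p of 0.228. It was −1.23 with tamoxifen replicates 1 to 3 summed, −1.34 without them, and −1.23 to −0.95 with each library left out. Of the 2 other tests run across all genes, DESeq2 gave Psme4 an adjusted p of 0.0389, the 1 member it called at an FDR of 0.05 (0.93% of all genes were called lower). Limma voom with sample quality weights gave Psme4 0.0168 and called 10 members lower (6.94% of all genes). Both tests took all 10 libraries as separate samples. Neither was run with tamoxifen replicates 1 to 3 summed or left out, so how far their calls rest on those libraries was not tested.

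Psme1 and Psme2 encode the alpha and beta chains of the PA28 cap, which interferon induces and which is known for its part in making peptides for antigen presentation. Psme2 had 149.6 to 276 normalised CPM (median 190.5) with tamoxifen, against 453, 137, 307 and 308 with corn oil. Psme1, whose exons overlap Emc9 on the other strand, had 154 to 253 normalised CPM (median 173) with tamoxifen, against 351, 108, 234 and 278 with corn oil. Both genes were lowest of all libraries in corn oil replicate 2 and highest in corn oil replicate 1. Log2 fold changes were −0.58 (SE 0.30) for Psme2 and −0.32 (SE 0.30) for Psme1, with edgeR adjusted p-values of 0.562 and 0.813. Psme3, the chain of the nuclear PA28 gamma cap, had 86.6 to 143 normalised CPM (median 128) with tamoxifen, against 104, 117, 43.8 and 157 with corn oil. Its fold change on the log2 scale was 0.22 (SE 0.31; adjusted p of 0.894 in edgeR), and corn oil replicate 3 was lowest. Without that library it was −0.04. The name match Psmc3ip had 0 to 10.1 normalised CPM with tamoxifen and 2.01 to 13.7 with corn oil, a log2 fold change of −0.42 (SE 1.04), and Psma8 had at most 0.547 with tamoxifen and 1.01 with corn oil.

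Psme1 and Psme2 lie next to each other on chromosome 14, where 5 members are found, and corn oil replicate 2 was the lowest library for all 5 of them (Psmd6, Psmc6, Psmb5, Psme1 and Psme2). In that library they lay −0.91 to −0.34 from their own medians on the log2 scale. The 146 other genes measured on chromosome 14 up to the end of Psme2 at position 55591113 (GRCm38) had a median deviation of −0.79 there, with 134 (91.8%) below their own median. In the other 9 libraries the same genes had medians of −0.22 to 0.15. The 137 genes farther along the chromosome had a median of 0.02 in corn oil replicate 2. The cause was not tested. Without corn oil replicate 2, Psmb5, Psme2 and Psme1 had log2 fold changes of −0.75, −0.82 and −0.56, all at an unadjusted p under 0.05 (adjusted p of 0.388, 0.378 and 0.556 by edgeR). The share of all genes at that threshold was not counted in this fit. Because the library left out was picked as the lowest for these genes, lower fold changes follow from the choice. Other libraries moved them the other way: Psmb5 was at −0.35 without corn oil replicate 3, and Psme2 and Psme1 at −0.32 and −0.09 without corn oil replicate 1. A fit with the median of each chromosome taken out of each library was added after seeing the data. In it 9 members were lower at an unadjusted p under 0.05 (5.42% of all genes), among them Psmb5 and Psme2. At that threshold 1 of 39 members was higher, Psmd5, and 509 of all 13006 genes tested were higher. The beta ring then held 4 of the 9.

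**Figure D4:**
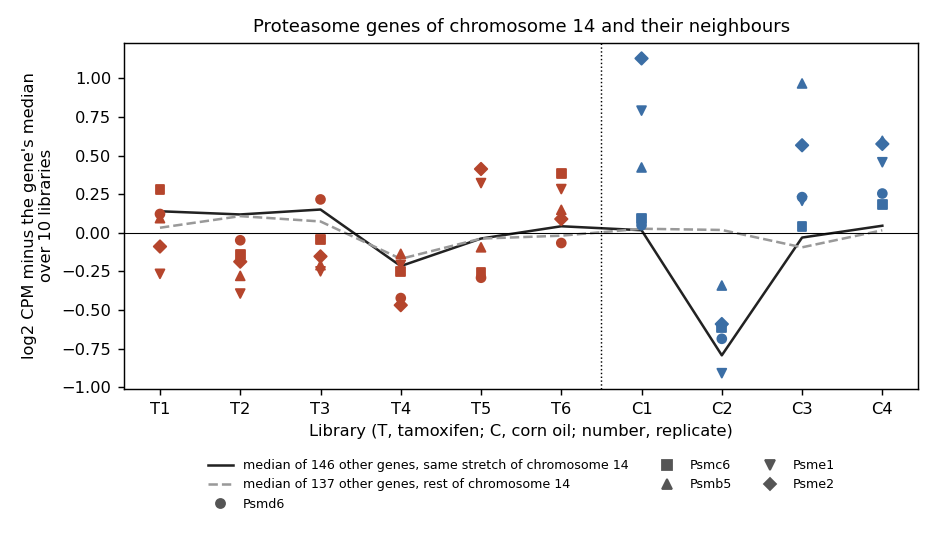
Log2 CPM minus the gene's median over 10 libraries for the 5 proteasome genes of chromosome 14 (symbols; red, tamoxifen; blue, corn oil), with the median of the other genes of the same stretch (solid line) and of the rest of the chromosome (dashed line). In corn oil replicate 2 the 5 genes and the solid line lie together, with the line at −0.79, while the dashed line stays at 0.02.

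Levels of different genes were compared per transcript length, as TPM over the principal transcript of each gene. On this scale the ratio of tamoxifen to corn oil is higher than in normalised CPM, by a median of 0.21 on the log2 scale over all tested genes and 0.19 over members, so TPM is used here for levels and not for group differences. Although each 20S particle holds every alpha and beta chain in equal number, transcript levels were unequal. By principal transcript, Psmb5 was lowest in the beta ring, with 152 ± 12.6 TPM (SD, n = 6) with tamoxifen and 197 ± 71.3 (SD, n = 4) with corn oil. Psmb6 was highest, with 919 ± 167 TPM with tamoxifen and 1305 ± 190 with corn oil (same n). In the alpha ring Psma3 was lowest, with 181 TPM with tamoxifen and 198 with corn oil, and Psma7 highest, with 1175 TPM with tamoxifen and 1466 with corn oil. Psme4 had the lowest level of the subunits and caps, 8.77 TPM with tamoxifen and 16.9 with corn oil. The extremes of both rings depended on the length used. Over all libraries and with all exons of a gene as its length, the highest gene of the beta ring was Psmb2 (845 TPM, Psmb6 728) and the lowest Psmb7 (117 TPM, Psmb5 270.4). In the alpha ring the highest was then Psma6 (1024 TPM, Psma7 612) and the lowest Psma4 (167 TPM, Psma3 219). By both lengths Psmb6 was the highest catalytic subunit and Psmd1 the lowest of the 31 members counted as subunits of the 26S particle.

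The 3 interferon-induced subunits replace catalytic subunits in the immunoproteasome, Psmb8 replacing Psmb5, Psmb9 replacing Psmb6 and Psmb10 replacing Psmb7. None was lower or higher at an unadjusted p under 0.05, and their median log2 fold change was −0.63. Psmb8 had 1.14 to 44.9 normalised CPM (median 2.94) with tamoxifen, against 111, 11.1, 17.0 and 10.5 with corn oil. Tamoxifen replicates 4 and 5 (44.9 and 27.0) and corn oil replicate 1 were high, and tamoxifen replicates 1 to 3 and 6 were all under 3. The resulting log2 fold change was −1.45 (SE 1.02; adjusted p of 0.718 in edgeR). Psmb9 was high in the same 3 libraries, with 13.9 and 13.0 normalised CPM in tamoxifen replicates 4 and 5 and 19.3 in corn oil replicate 1; its log2 fold change was −0.56 (SE 1.26; adjusted p of 0.946 in edgeR). Psmb10 had 21.1 to 75.2 normalised CPM (median 64.1) with tamoxifen, against 123, 59.7, 79.0 and 98.0 with corn oil, a log2 fold change of −0.63 (SE 0.34; adjusted p of 0.598 in edgeR). Per transcript length, Psmb8 made up 0.73% to 25.9% of the Psmb8 and Psmb5 pair in tamoxifen libraries, and 36.9%, 9.05%, 5.83% and 4.69% in corn oil libraries. Psmb9 made up 0.0186% to 1.65% of its pair with Psmb6 in tamoxifen libraries and 0.156% to 1.91% in corn oil libraries. Psmb10 made up 9.46% to 41.8% of its pair with Psmb7 in tamoxifen libraries, and 38.1%, 20.7%, 30.4% and 30.0% in corn oil libraries. In tamoxifen replicates 1 to 3 it was 38.4%, 41.8% and 37.1%. The ranges of the groups overlapped for all 3 pairs. The shares depend on the length used. Over all libraries, Psmb10 and Psmb7 averaged 95.3 and 217 TPM by principal transcript, and 116.7 and 117.2 TPM with all exons as length. Psmb8 and Psmb5 moved the other way, from 24.2 and 169.8 TPM by principal transcript to 18.4 and 270.4 TPM with all exons.

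Genes that build and serve the proteasome differed in direction. Of 5 chaperones of 20S assembly, Pomp, which matures the beta ring, was lower at an unadjusted p under 0.05 (5.27% of all genes). It had 189.9 to 335 normalised CPM (median 241) with tamoxifen, against 485, 363, 319 and 359 with corn oil, a log2 fold change of −0.56 (SE 0.23; adjusted p of 0.461 in edgeR). Tamoxifen replicates 4 and 6 overlapped with corn oil replicate 3. Psmg2, an assembly chaperone of the alpha ring, had a log2 fold change of 0.48 (SE 0.37; adjusted p of 0.745 in edgeR). Among 16 genes listed as factors that bind the proteasome, the median was 0.11. At an unadjusted p under 0.05, 1 was lower and 2 were higher, against 5.27% and 4.43% of all genes. The lower gene was Shfm1, with 252 to 460 normalised CPM with tamoxifen and 408 to 801 with corn oil. Its log2 fold change was −0.61 (SE 0.26; adjusted p of 0.481 in edgeR). Shfm1 encodes a 19S subunit, and so does Adrm1 on this list, but their symbols fall outside the rule for members. Adrm1 had a log2 fold change of −0.34 (SE 0.20) and an edgeR adjusted p of 0.655. Ubqln1, a shuttle that carries ubiquitinated proteins to the 19S particle, had 139 to 202 normalised CPM (median 172) with tamoxifen, against 94.8, 93.8, 81.6 and 119 with corn oil. Every tamoxifen library lay above every corn oil library, and the means were 173 ± 25.2 (SD, n = 6) with tamoxifen and 97.2 ± 15.6 (SD, n = 4) with corn oil. Its log2 fold change was 0.83 (SE 0.21), with an edgeR adjusted p of 0.199. Txnl1, a thioredoxin-like protein bound to the 19S particle, had 207 to 303 normalised CPM (median 261) with tamoxifen, against 169, 146, 213 and 137 with corn oil. Only corn oil replicate 3 reached the tamoxifen range, and the log2 fold change was 0.63 (SE 0.21; adjusted p of 0.335 in edgeR).

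The transcript of the regulator NFE2L1 averaged 70.7 ± 13.0 normalised CPM (SD, n = 6) with tamoxifen and 70.8 ± 10.5 (SD, n = 4) with corn oil, a log2 fold change of −0.001 (SE 0.23; adjusted p of 1 in edgeR). This factor is controlled largely after transcription, and its protein was not measured. Nfe2l2, encoding the oxidative stress regulator NRF2, averaged 223 ± 70.6 (SD, n = 6) with tamoxifen and 265 ± 56.5 (SD, n = 4) with corn oil, a log2 fold change of −0.25 (SE 0.27; adjusted p of 0.852 in edgeR). Of the 6 genes of proteasome gene control, 1 was higher at an unadjusted p under 0.05, against 4.43% of all genes. This was Ngly1, which removes sugar chains from NFE2L1 as it is activated. Ngly1 had 49.4 to 92.3 normalised CPM (median 82.8) with tamoxifen, against 64.1, 35.6, 54.4 and 30.2 with corn oil. The groups overlapped, and its log2 fold change was 0.70 (SE 0.31; adjusted p of 0.496 in edgeR). Ddi2, the protease that cuts NFE2L1, had 7.03 to 63.5 normalised CPM (median 11.7) with tamoxifen, against 6.46, 12.5, 5.04 and 2.08 with corn oil, a log2 fold change of 1.58 (SE 0.76; adjusted p of 0.532 in edgeR).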

How the data were processed

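RNA-seq read counts of laser-captured tumour epithelium from 6 tamoxifen and 4 corn oil libraries were used as deposited. The authors deposited 1 table of raw counts, a row for each gene symbol. RNA isolated with the RNeasy micro kit was amplified by SMART-seq v4 and prepared with Nextera XT, per the labels' protocols; these kits mark no strand. The submitters' processing notes name mm10, STAR 2.5.2b, featureCounts 1.5.0-p3 and bcl2fastq 2.17. Of the annotation, the strand setting and the treatment of reads with several positions, the sources used here say nothing.

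Counts were tested with edgeR 4.0.16 (R 4.3.3): genes kept by filterByExpr (13006), TMM factors, a quasi-likelihood F test without covariates, and Benjamini-Hochberg adjustment over all genes tested. SE is the absolute log2 fold change divided by the square root of F. Log2 CPM used a prior count of 2. Positions and lengths came from GENCODE M21 (GRCm38); all 40 members matched. The test was tested on simulated data. Alternatives were RLE and upper-quartile factors, other filters, DESeq2 1.42.0, limma 3.58.1 voom and an FDR of 0.1. Further ones were sex as a covariate, tamoxifen replicates 1 to 3 summed or left out, and leaving out each library. A library was called male where the Y-linked gene Ddx3y was above Xist (tamoxifen 1 female and 5 male, corn oil 2 female and 2 male). Removing chromosome medians was added after seeing the data.

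Members, gene lists and marker lists were chosen with earlier results of these data known. Named were members past the FDR, the 4 higher and 8 lower of smallest p, in each role the smallest p in each direction and the highest level per length, and the catalytic subunits and caps; Psmc3, Psmb4, Psmb2, Psmb1 and Psma2 to Psma5 fall outside this rule and were named after their values were seen. Of each other list, the 2 genes of smallest p were named, with the immunoproteasome genes, Nfe2l1, Nfe2l2 and Pomp always. Shfm1 and Adrm1 fall outside this rule and were named after their values were seen. Some genes are not reported here. Figures were drawn with matplotlib 3.10.9.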

Additional observations from a re-analysis of the deposited data

Results flagged for a closer look

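In a group of 4 to 6 libraries, a value was marked when its gap to the nearest other value was an unusually large part of the group's range by Dixon's test. This marked 10 of 148 comparisons, where chance marks about 1 in 20. Values are normalised CPM. Among members, tamoxifen replicate 6 was far above the other tamoxifen libraries for Psmd11 (393, the others 153 to 212) and for Psma1 (341, the others 199 to 248). The same library was far below for Psmb10 (21.1, the others 57.2 to 75.2). Corn oil replicate 1 was far above the other corn oil libraries for Psmb8 (111, the others 10.5 to 17.0), Psmb9 (19.3, the others 1.996 to 4.63) and Gbp3 (52.0, the others 0 to 6.97). Tamoxifen replicate 4 was far above for Ddi2 (63.5, the others 7.03 to 13.6). Mx1 stood out in tamoxifen replicate 5 (1.49, the others 0.0628 to 0.523) and in corn oil replicate 4 (9.44, the others 0 to 0.967). Nfe2l2 stood out in corn oil replicate 3 (349, the others 227 to 246).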

How the results depend on the processing

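Genes past an FDR of 0.05 numbered 5 in the fit reported, 243 with DESeq2, 1251 with voom, 18 at an FDR of 0.1, 0 with sex as a covariate, 0 with tamoxifen replicates 1 to 3 summed or left out, and 0 to 11 with each library left out. Members past it numbered 0 in the fit reported, 1 with DESeq2 (Psme4) and 10 with voom, against 0.93% and 6.94% of all genes lower by those tests. DESeq2 and voom were not run with tamoxifen replicates 1 to 3 summed or left out. Members lower at an unadjusted p under 0.05 numbered 10 (5.27% of all genes). They numbered 1 with those replicates summed (2.67% of all genes) or left out (2.23%). With voom there were 18, and 4 to 12 with each library left out, settings where the share of all genes was not counted. Removing chromosome medians gave 1 of 39 members higher at that threshold and 509 of 13006 genes. The fit reported had 0 members and 576 of 13006 genes. Members with groups that did not overlap numbered 3, against 5 with upper-quartile factors or chromosome medians removed and 3 to 6 with each library left out. Leaving out a library can only keep or raise this count, and the share of all genes was not counted under these settings. The median over members was −0.31, against −0.13 without tamoxifen replicates 1 to 3 and −0.40 to −0.22 with each library left out. Of 420 values of named members under other settings, 411 stayed on the same side of the FDR threshold with the same direction where called, 9 passed it and 0 reversed. No named member was called in the fit reported, so this tally says nothing of the direction of values not called. With each of the 10 libraries left out, the sign changed in 6 fits for Psmd10, 5 for Psma6, 2 for Psmc6 and 1 each for Psme3 and Psmd11. No paired analysis was possible because the labels carry no replicate numbers; the numbers used here only name libraries. The causes were not tested. Psma8, with 0 reads in most libraries, could not be tested at this depth.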

Other observations

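Interferon induces the PA28 cap and the immunoproteasome. Of 22 other interferon response genes 19 were tested, and 14 had a log2 fold change below 0 (median −0.37), against 50.7% of all genes. At an unadjusted p under 0.05, 1 was lower, against 5.27% of all genes. This was Gbp3, an interferon-induced GTPase, with 0.436 to 3.33 normalised CPM (median 1.33) with tamoxifen, against 52.0, 0, 6.97 and 2.16 with corn oil. Its log2 fold change was −3.31 (SE 1.34; adjusted p of 0.437 in edgeR). The highest library was corn oil replicate 1, which was also highest for Psmb8, Psmb9, Psme1 and Psme2. Mx1, an antiviral GTPase, was near 0 in most libraries, with 0.0628 to 1.49 normalised CPM with tamoxifen and 0.924, 0, 0.967 and 9.44 with corn oil, and its highest library was corn oil replicate 4. Its edgeR adjusted p was 0.614.

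Of 5 genes of ubiquitin supply, 4 had a log2 fold change below 0, against 50.7% of all genes. At an unadjusted p under 0.05, 1 was higher, against 4.43% of all genes. Uba6, an enzyme that activates ubiquitin, had 10.8 to 53.4 normalised CPM (median 22.6) with tamoxifen, against 6.22, 10.2, 10.2 and 19.8 with corn oil. Tamoxifen replicates 1 to 3 and 6 lay above every corn oil library, and the log2 fold change was 1.19 (SE 0.55; adjusted p of 0.513 in edgeR). Ubb, a polyubiquitin gene, had 22.1 to 52.1 normalised CPM (median 26.3) with tamoxifen, against 36.8, 33.6, 37.8 and 35.2 with corn oil, a log2 fold change of −0.21 (SE 0.32; adjusted p of 0.905 in edgeR). Tamoxifen replicate 4 was its highest library and tamoxifen replicates 1 to 3 and 6 lay below every corn oil library. Ubiquitin sequence is repeated in several genes, so the reads counted for it are uncertain.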
